A study of Bos taurus with 16 samples.

Results

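The 10 genes described here encode the muscle enzymes of glycolysis that follow the phosphorylation of glucose: GPI, PFKM, ALDOA, TPI1, GAPDH, PGK1, PGAM2, ENO3, PKM and LDHA. They were taken by symbol, through the NCBI gene ID of each row, and all 10 were found among the 34109 genes of the count and expression files. Of those IDs, 30762 had a symbol in the reference table. The NCBI gene IDs are 280808 for GPI, 506544 for PFKM, 509566 for ALDOA, 281543 for TPI1, 281181 for GAPDH, 507476 for PGK1, 515067 for PGAM2, 540303 for ENO3, 512571 for PKM and 281274 for LDHA. RNA was sequenced from the round (hind limb) and sirloin muscles of 8 newborn male calves of Hanwoo, a Korean breed of cattle, which gave 16 libraries. Mothers of the 4 control calves were fed 100% of their requirement, and mothers of the 4 treated calves were fed 150% of it from mid to late pregnancy. All calves were killed after birth and before colostrum, in both groups.

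Glycolysis splits glucose in the cytosol into pyruvate and yields ATP without oxygen, and lactate dehydrogenase then turns pyruvate into lactate so that NAD+ is regained. Skeletal muscle uses its own isozymes for several of these steps, among them PFKM, PGAM2 and ENO3. Fast fibres, which contract quickly, generally hold more of these enzymes than slow fibres, which carry slow myosin (MYH7) and rely more on mitochondria.

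Total counts per library ranged from 44473011 to 72446933. Skeletal muscle markers were high in every library, with the actin gene ACTA1 at 18800 to 46277 TPM (a transcript level scaled for gene length and sequencing depth). Libraries that stood apart were the round library of treated calf 2, with MYH7 at 11858 TPM against 1354 to 3769 TPM in the other round libraries, the round library of control calf 2 and the sirloin library of treated calf 4. In control calf 2 the 5 fibroblast markers summed to 2100 TPM, against at most 718 TPM in any other library. In the sirloin library of treated calf 4 the adipocyte genes ADIPOQ and FABP4 reached 678 and 2825 TPM, and the 5 adipocyte markers summed to 3777 TPM against at most 15 TPM in any other library. Because bulk tissue was sequenced, fewer cells of a type and less RNA per cell cannot be told apart.

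The glycolytic genes were among the most abundant transcripts of both muscles. Together they made up 2.40% to 6.07% of all TPM in a library, with a mean of 4.42% ± 1.18 (SD, n = 16 libraries from 8 calves). In round muscle their share was 6.0%, 3.78%, 4.01% and 3.10% in control calves 1 to 4, and 5.87%, 2.40%, 2.89% and 5.54% in treated calves 1 to 4. In sirloin muscle it was 6.07%, 5.04%, 4.38% and 3.58% in the control calves and 5.76%, 4.53%, 3.99% and 3.75% in the treated calves. The diets overlapped in both muscles, and the round libraries of treated calves 2 and 3 had the lowest shares of all.

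ALDOA, the aldolase that cleaves fructose 1,6-bisphosphate, and GAPDH, which oxidises glyceraldehyde 3-phosphate, led the group. Their mean levels were 14168 TPM (SD 4418) and 13936 TPM (SD 3748) over the 16 libraries, ranks 9 and 10 among all genes. ALDOA exceeded GAPDH in 11 of 16 libraries, and the ratio of their TPM stayed between 0.826 and 1.14, so the order of this pair was not larger than its spread. Both together held 57.0% to 74.4% of the glycolytic TPM of a library. In round muscle ALDOA was at 19570, 10430, 12386 and 9076 TPM in the control calves and at 19733, 7860, 8175 and 16649 TPM in the treated calves. Each diet therefore had calves at both ends of the range. In sirloin muscle ALDOA was at 22116, 14582, 14678 and 11855 TPM in the control calves and at 18781, 16902, 12130 and 11755 TPM in the treated calves. GAPDH lay between 8260 and 18850 TPM in round and between 10671 and 19341 TPM in sirloin muscle.

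ENO3, the muscle enolase, came next at 6148 TPM (SD 1632), below GAPDH in 16 of 16 libraries and above the next gene in all of them. PKM, the pyruvate kinase of the last ATP-yielding step, averaged 2283 TPM (SD 775), LDHA, the muscle subunit of lactate dehydrogenase, 2102 TPM (SD 800), and TPI1, the triose-phosphate isomerase, 1837 TPM (SD 524). These neighbours were not separated beyond their spread, since PKM exceeded LDHA in 9 of 16 libraries and LDHA exceeded TPI1 in 10. PGAM2, the muscle phosphoglycerate mutase, averaged 1686 TPM (SD 516), below TPI1 in 11 of 16 libraries. PFKM, the phosphofructokinase that commits sugar to glycolysis, averaged 1094 TPM (SD 289), below PGAM2 in 16 of 16 libraries. PGK1, the phosphoglycerate kinase of the first ATP-yielding step, averaged 559 TPM (SD 160). GPI, the isomerase of glucose 6-phosphate, was lowest at 360 TPM (SD 158), and it lay below PGK1 in 15 of 16 libraries. From the highest to the lowest library, levels differed by 2.34-fold for GAPDH to 5.41-fold for PKM.

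**Figure D1:**
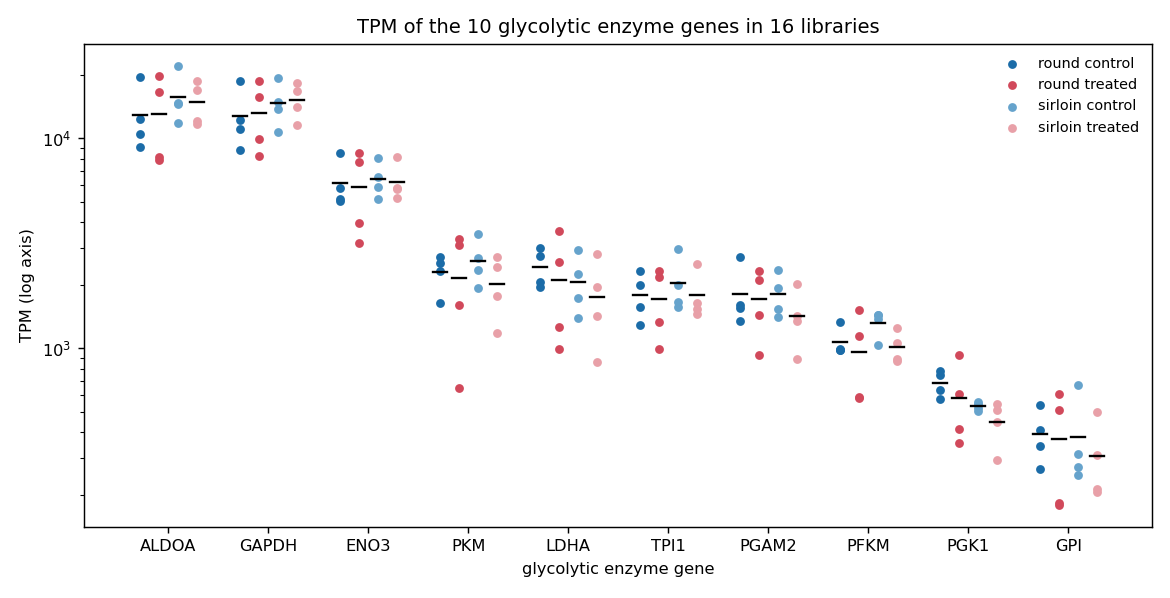
TPM of each glycolytic gene (log axis) in the 16 libraries, with genes ordered by mean TPM. Points are calves and bars the mean of the 4 calves of a group. ALDOA and GAPDH lie above all others, and control and treated calves overlap within each muscle for every gene.

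Other isozymes of the same steps were less abundant, by 9.94-fold or more for ENO1, PGAM1 and PFKL but by as little as 1.94-fold for LDHB. LDHB, the heart subunit of lactate dehydrogenase, ranged from 184 to 586 TPM, ENO1 from 118 to 338 TPM and PGAM1 from 33.6 to 121 TPM. The entry step, hexokinase, was led by HK2 at 23.7 to 86.9 TPM, whereas HK1 did not exceed 10.3 TPM. PFKL, the liver phosphofructokinase, stayed between 7.16 and 36.5 TPM.

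The ratio of LDHA to LDHB varied more in round than in sirloin muscle. In round muscle it was 16, 11.2, 10.2 and 9.90 in the control calves and 11.4, 1.94, 2.75 and 19.6 in the treated calves. In sirloin muscle it was 7.61, 7.82, 6.34 and 3.70 in the control calves and 6.29, 4.02, 3.50 and 3.33 in the treated calves. Treated calves 2 and 3 thus had the lowest ratios in round muscle, with LDHB at 510 and 459 TPM against 184 to 247 TPM in the other round libraries. Their sirloin ratios lay within the range of the other sirloin libraries. The ratio of ENO3 to ENO1 ran from 16.9 to 68.4 over the 16 libraries and that of PGAM2 to PGAM1 from 9.94 to 58.2, with the lowest values in the sirloin libraries of treated calves 4 and 2, respectively. In edgeR LDHB itself differed by 0.61 (log2, SE 0.30) between the diets in round muscle, with an adjusted p of 0.864.

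**Figure D2:**
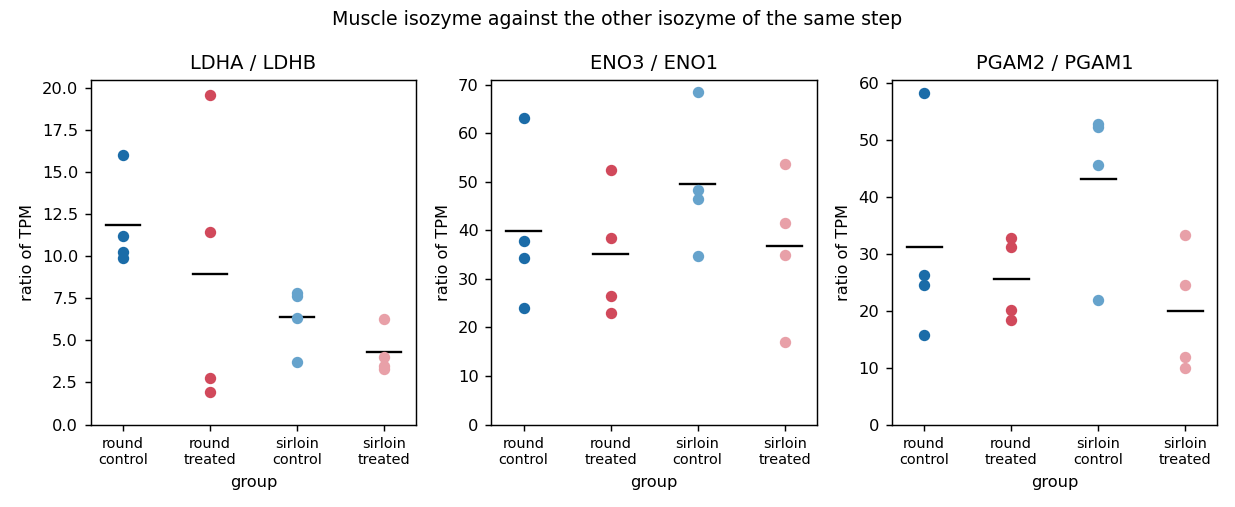
Ratio of the TPM of the muscle isozyme to that of another isozyme of the same step, for lactate dehydrogenase, enolase and phosphoglycerate mutase, in each library (points) with the mean of the 4 calves of a group (bars). Round treated calves 2 and 3 have the lowest LDHA to LDHB ratios of round muscle, at 1.94 and 2.75.

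The relation to fibre type was followed with an index, the mean log2 CPM (counts scaled to sequencing depth) of 13 fast fibre genes, such as MYH1, MYH4 and TNNC2, minus that of 10 slow fibre genes, such as MYH7, MYL2 and TNNI1. Relations were computed between the index and the log2 CPM of each glycolytic gene. In round muscle the index was 1.09, 0.28, 0.31 and -0.08 in the control calves and 0.61, -2.47, -1.28 and 1.04 in the treated calves. In sirloin muscle it was 0.36, 0.34, 0.41 and -0.03 in the control calves and 0.13, 0.72, -0.42 and 1.39 in the treated calves. The highest sirloin value belongs to the library with adipocyte genes, which also held PVALB, a gene of the fast list, at 51.0 TPM against at most 0.497 TPM elsewhere. With list genes of at least 10 CPM, which leaves out PVALB and was chosen after the values were seen, the index spanned 0.87 to 1.99 in sirloin and -1.25 to 2.46 in round muscle.

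In round muscle every glycolytic gene was higher in calves with a faster index. LDHA had the highest r, at 0.989 (exact permutation p = 0.000124, adjusted p = 0.00112, n = 8 calves). Its rho was 0.952 (exact permutation p = 0.00114, adjusted p = 0.00456), below the 0.976 of GAPDH and ENO3. In the round calves LDHA stood at 3013, 2761, 2075 and 1961 TPM in the controls and at 2584, 989, 1264 and 3611 TPM in the treated calves, so that the lowest pair were treated calves 2 and 3. GAPDH had the lowest r of 0.848 (exact permutation p = 0.00327, adjusted p = 0.00655) but a rho of 0.976 (exact permutation p = 0.000397, adjusted p = 0.00397). The 10 values of r had a median of 0.933. After adjustment over 20 relations, 10 of 10 genes passed by r and 9 of 10 by rho, in two-sided exact permutation tests. The exception was GPI, with rho = 0.786 (exact permutation p = 0.0279, adjusted p = 0.0559). The counts of both sides come from the same libraries and share their scaling. The share of all genes that follow the index was not computed, so the relation is not shown to be particular to glycolytic genes.

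The adjusted calls were lost without treated calves 2 and 3, the farthest from the median index, which also cut the number of calves from 8 to 6. Then r ran from 0.523 for PGK1 to 0.939 for LDHA, with a median of 0.870, and that of GAPDH was 0.866. All 10 genes kept a positive r, 8 of 10 had an unadjusted exact permutation p under 0.05, and 0 of 10 passed after adjustment, with a lowest adjusted permutation p of 0.0764. With 4 calves per diet, no value within a diet was computed. The slow fibre genes alone, with the sign turned, gave 8 of 10 by r and 1 of 10 by rho in exact permutation tests.

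No such relation was detected in sirloin muscle. There r ran from -0.40 to 0.06 for the 10 genes, and 0 of 10 had an exact permutation p under 0.05 before or after adjustment. The index spanned -0.42 to 1.39 in sirloin muscle against -2.47 to 1.09 in round muscle. Without treated calves 3 and 4, those farthest from the median, r ran from -0.63 to 0.34. The slow fibre genes alone, with the sign turned, gave r from -0.69 to -0.12 and rho from -0.45 to 0.17 in sirloin muscle. By r, 0 of 10 genes had an exact permutation p under 0.05 there. The difference in r between the muscles was not tested.

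**Figure D3:**
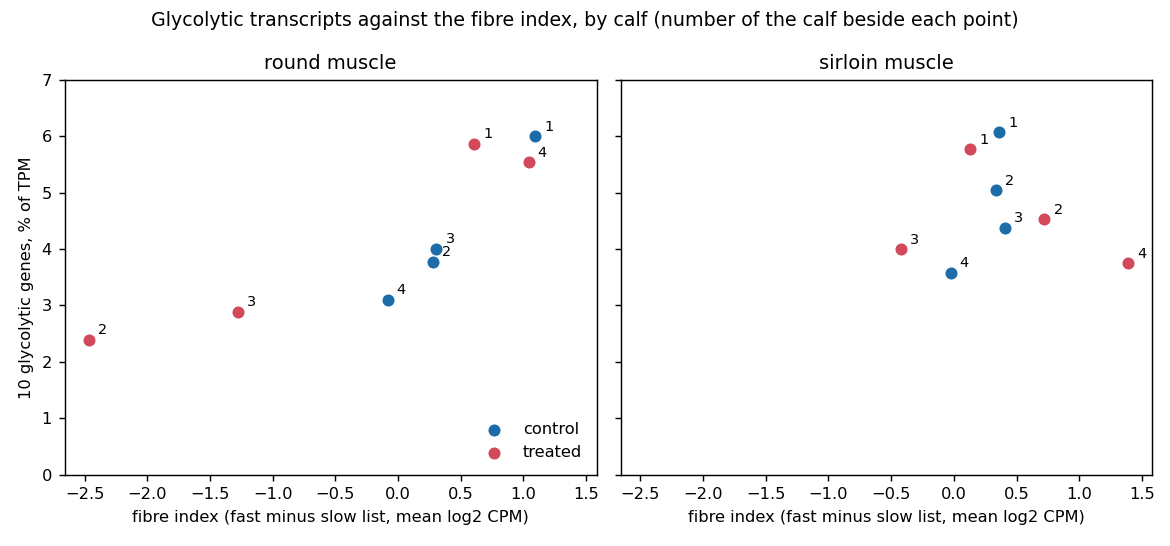
Share of the 10 glycolytic genes in the TPM of a library against the fibre index (fast minus slow list, mean log2 CPM), for round (left) and sirloin (right) muscle. Each point is a calf with its number, and the round libraries of treated calves 2 and 3 sit at the lower left with shares of 2.40% and 2.89%.

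The 10 genes moved together between calves. After the mean of each group was removed, the 45 pairs of genes had r from 0.580 (GAPDH with PGK1) to 0.981 (ALDOA with GAPDH) over the 16 libraries, with a median of 0.825, and 27 pairs were over 0.8. These values describe libraries that share a calf in pairs and carry no test. The mean deviation of the 10 genes from their group was lowest in round treated calf 2, at -0.91 (log2 CPM). It was highest in round treated calves 4 and 1, at 0.72 and 0.60, and sirloin treated calf 1 and round control calf 1 both reached 0.49. In the sirloin library of treated calf 2 the genes parted, with ALDOA and GAPDH 0.15 and 0.11 above and the other 8 below their group means, from ENO3 at -0.13 to LDHA at -0.96. Relative to ALDOA, each of those 8 genes had its lowest TPM ratio of all 16 libraries there, for example 0.070 for PKM, 0.051 for LDHA and 0.344 for ENO3.

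**Figure D4:**
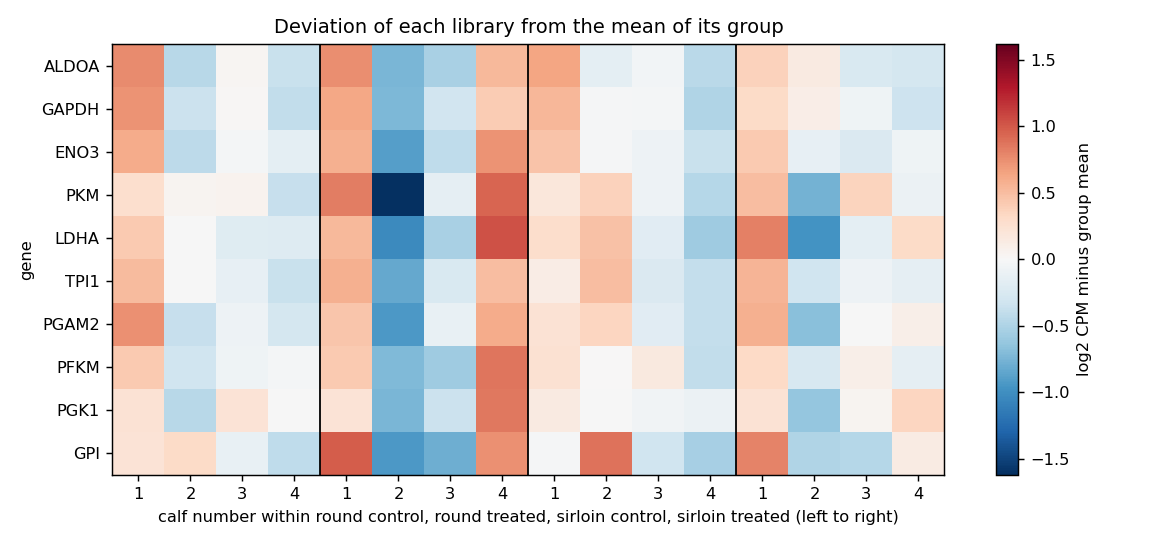
Deviation of each glycolytic gene from the mean of its group (log2 CPM, colour) in each library, with calves 1 to 4 of each group from left to right. Columns tend to carry a single colour, which is deepest in round treated calf 2, where the mean deviation is -0.91.

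Among 7327 other genes of at least 10 CPM, those most like the mean of the glycolytic genes over the 16 libraries, with group means removed, were PGM1 (r = 0.939), VAPA (r = 0.937), PGP (r = 0.926), SH3GLB2 (r = 0.920) and COA1 (r = 0.920). PGM1 is the phosphoglucomutase that links glycogen to glycolysis, and PGP is a phosphatase of glycolytic by-products. VAPA anchors contacts of the endoplasmic reticulum with other membranes. The lowest r belonged to QSER1 (-0.865), ZBTB39 (-0.850) and GCNT1 (-0.840). Over all these genes the median r was 0.005, and the middle 90% lay between -0.563 and 0.654. The values of r here pool round and sirloin libraries, and none was computed for either muscle alone. Of the fast fibre genes of at least 10 CPM, 12 of 12 had a positive r, from 0.554 (MYL1) to 0.872 (MYLPF). Of the slow fibre genes 9 of 10 had a negative r, down to -0.763 (ATP2A2), and MYL3 was at 0.188. The genes of oxidative enzymes also had a positive r in 12 of 12, from 0.224 (COX7A2) to 0.677 (COX5A), with a median of 0.532. Of the hypoxia response genes 9 of 11 had a negative r, from -0.530 (HIF1A, inside the middle 90%) to 0.023 (ADM), with a median of -0.208.

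Maternal diet was compared within each muscle with edgeR. In round muscle 0 of 10 glycolytic genes passed an adjusted p of 0.05, 0 of 10 had an unadjusted p under 0.05, and DESeq2 called 0 of 10 on both counts. Of all genes tested 0.0185% were called in round muscle after adjustment and 4.41% had an unadjusted p under 0.05. The log2 fold change of treated against control calves lay between -0.32 (PGK1, SE 0.35, adjusted p = 0.925 in edgeR) and -0.03 (GAPDH, SE 0.39), with a median of -0.14 against 0.02 over all genes. The standard errors, 0.35 to 0.46, exceeded the change for every gene.

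The sign of most, but not all, estimates in round muscle depended on single calves. Without treated calf 2 the estimate was above 0 for 7 of 10 genes, without control calf 1 for 5 of 10, and without treated calf 3 for 3 of 10. Without control calf 2, the library with fibroblast genes, 10 of 10 were negative and the median moved to -0.26. PGK1 showed the calf to calf spread, at 743, 571, 779 and 631 TPM in the control and 608, 353, 415 and 932 TPM in the treated calves. Both the lowest and the highest calf were treated. Of the slow fibre genes, 9 of 10 had a positive estimate in round muscle, with a median of 0.77, 4 of 10 had an unadjusted p under 0.05 and none passed after adjustment in edgeR or DESeq2 (5 of 10 unadjusted in DESeq2). Without treated calf 2 their median was 0.28. They summed to 24537 to 30672 TPM in the round control and 19858 to 91877 TPM in the round treated calves. Whether the fibre genes had a part in the glycolytic estimates was not tested. The CPM of every treated calf fell below that of every control calf for 0 of 10 glycolytic genes in round muscle, and for 1.07% of all genes.

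In sirloin muscle 0 of 10 glycolytic genes passed after adjustment in edgeR or DESeq2, against 0.00918% of all genes in edgeR. With all calves kept, PFKM alone had an unadjusted p under 0.05 (3.91% of all genes), in both tools. Its level in sirloin muscle was 1444, 1385, 1435 and 1034 TPM in the control calves and 1250, 873, 1060 and 887 TPM in the treated calves. The groups overlapped through control calf 4 and treated calves 1 and 3. The log2 fold change of PFKM was -0.56 (SE 0.22, unadjusted p = 0.0264, adjusted p = 0.876 in edgeR).

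PGK1 was the single glycolytic gene whose groups did not overlap in CPM in sirloin muscle, at 651, 588, 567 and 553 CPM in the control and 504, 278, 441 and 545 CPM in the treated calves, an order found for 0.822% of all genes. In TPM the groups did overlap, with 502 to 556 TPM in the control and 294 to 541 TPM in the treated calves. Its log2 fold change was -0.42 (SE 0.22, adjusted p = 0.876 in edgeR), and -0.25 without treated calf 2. The other 8 genes lay between -0.53 (PKM, SE 0.30) and -0.14 (GAPDH, SE 0.25).

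All 10 sirloin estimates were below 0, with a median of -0.41 against 0.03 over all genes. Scaled by library size alone, the median over all sirloin genes moved to 0.21 and GAPDH turned to 0.06, while 10 of 10 genes stayed below the median of all genes. Without treated calf 4, the library with adipocyte genes, 10 of 10 estimates were still negative with a median of -0.46. With treated calf 1 left out, the median was -0.64 and 5 of 10 had an unadjusted p under 0.05 in edgeR. Over all genes 1071 of 21602 did so in that fit. With treated calf 2 left out, the median was -0.28 and 0 of 10 were under 0.05. With control calf 1 left out, 9 of 10 estimates were negative. Of the skeletal muscle markers, 7 of 7 had negative estimates in sirloin muscle with a median of -0.47, as did 11 of 12 genes of oxidative enzymes with a median of -0.31 and 12 of 13 fast fibre genes with a median of -0.25. None of these passed after adjustment in edgeR or DESeq2. Unadjusted, 2 of 7 skeletal muscle markers, 0 of 12 oxidative genes and 1 of 13 fast fibre genes had a p under 0.05 in edgeR, and 3, 0 and 1 in DESeq2. The fast fibre gene was PVALB in edgeR, whose estimate was positive, at 5.37, and TNNT3 in DESeq2, with a negative estimate. The skeletal muscle markers summed to 41723 to 74367 TPM in the sirloin control and 42886 to 54381 TPM in the treated calves. All 5 adipocyte markers had positive estimates, with a median of 8.12, and summed to 1.49 to 4.84 TPM in the control and 0.730 to 3777 TPM in the treated calves, with LEP listed at 0 in 7 of the 8 sirloin libraries. Without treated calf 4, the 4 adipocyte markers still tested had negative estimates. Of the red blood cell markers, 5 of 5 tested had positive estimates, with a median of 1.31 and 1 unadjusted p under 0.05 (HBA). They summed to 2.99 to 10.8 TPM in the control and 11.2 to 27.0 TPM in the treated sirloin calves, which did not overlap, with SLC4A1 listed at 0 throughout. In round muscle their sums did overlap, at 2.93 to 14.9 TPM in the control and 8.43 to 29.8 TPM in the treated calves. How often other gene sets part in this way was not computed. The part of these markers in the glycolytic estimates was not tested.

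**Figure D5:**
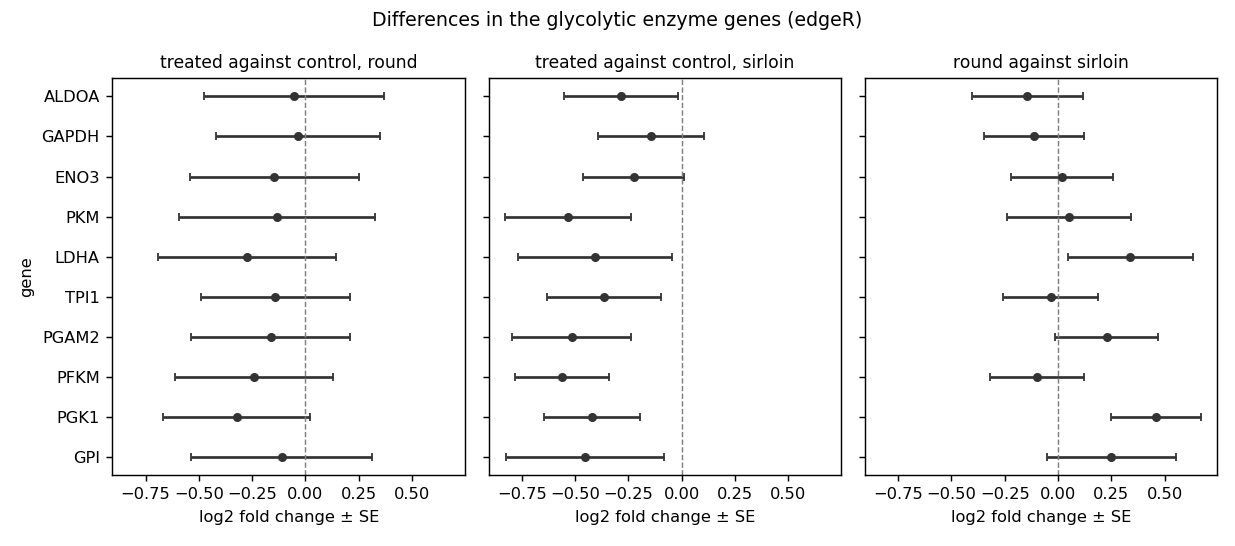
Log2 fold change with its standard error (edgeR) of each glycolytic gene for treated against control calves in round and in sirloin muscle, and for round against sirloin muscle. All diet estimates of both muscles lie below 0, and none of the differences shown passed after adjustment.

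Round and sirloin muscle of the same calves were compared over the mean of the diets. Of the glycolytic genes 0 of 10 passed after adjustment in edgeR or DESeq2, against 0.0612% of all genes in edgeR, and 1 of 10 had an unadjusted p under 0.05 in both tools, against 6.33% of all genes in edgeR. That gene was PGK1, higher in round muscle by 0.46 (log2, SE 0.21, unadjusted p = 0.0431, adjusted p = 0.777 in edgeR), or 1.38-fold. It was higher in round muscle in 7 of 8 calves. With the calf as a block, 0.476% of all genes passed (109 against 14 without it), and PGK1 differed by 0.41 (SE 0.13, adjusted p = 0.209 in edgeR). LDHA was higher in round muscle by 0.34 (SE 0.29) and in 6 of 8 calves, and PGAM2 by 0.23 (SE 0.24) and in 7 of 8. GPI differed by 0.25 (SE 0.30) with 5 of 8 calves higher in round muscle. Without treated calf 4 these differences were 0.16 for LDHA, 0.13 for PGAM2 and 0.15 for GPI. Without control calf 1 PGAM2 differed by 0.11, and without control calf 2 PGAM2 and GPI differed by 0.36 and 0.40. The other 6 genes lay between -0.14 (ALDOA, SE 0.26) and 0.05 (PKM, SE 0.29), within their standard errors in the fit without the block. The block by calf gave 0.31 (SE 0.15) for LDHA, 0.18 (SE 0.15) for PGAM2 and 0.22 (SE 0.14) for GPI. Under that block ALDOA was at -0.21 (SE 0.18), beyond its standard error, and 0 of 10 genes passed after adjustment in edgeR.

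The effect of diet on the glycolytic genes was not found to differ between the muscles. Called genes were 0 of 10 after adjustment and 0 of 10 unadjusted in edgeR and in DESeq2. Over all genes 0% were called after adjustment and 2.78% had an unadjusted p under 0.05 in edgeR, and DESeq2 called 0 after adjustment and 290 unadjusted. The difference of the diet effects, round minus sirloin, lay between 0.05 (ENO3, SE 0.48) and 0.37 (PKM, SE 0.58), and it was negative for 7 of 10 genes without treated calf 4 and for 4 of 10 without control calf 2. With the calf as a block the difference lay between -0.055 (ENO3, SE 0.33) and 0.32 (PGAM2, SE 0.29), with PKM at 0.13 (SE 0.38).

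Of the neighbouring genes of the pathway, none passed in edgeR without the calf as a block. Their values with that block are not given here. In round and in sirloin muscle, 0 of 17 other isozymes tested and 0 of 24 genes of regulators and neighbouring steps were called for diet in either direction in edgeR, and the same held for round against sirloin muscle. Unadjusted p-values under 0.05 numbered 1, 2 and 2 among the isozymes and 1, 1 and 3 among the regulators for round diet, sirloin diet and muscle, and 0, 2 and 2 and 1, 0 and 4 in DESeq2. DESeq2 called 1 of them after adjustment, between the muscles, namely PFKFB4. This gene, which makes an activator of phosphofructokinase, was lower in round muscle by -1.23 (log2, SE 0.31, unadjusted p = 0.000956) and did not pass in edgeR (adjusted p = 0.317), whereas its adjusted p was 0.0300 in DESeq2. PFKFB4 was at 36.7 to 127 TPM in round and at 114 to 433 TPM in sirloin muscle. PFKFB3, of the same family, ranged from 49.8 to 1039 TPM. PDK4, which restrains the entry of pyruvate into mitochondria, spanned 313 to 5403 TPM and was lowest in control calf 2 in both muscles.

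GAPDH was also the reference gene of the study's quantitative PCR, so its spread was set beside that of other candidates. Within groups the SD of its log2 CPM was 0.478. The glycolytic genes ran from 0.443 (PGK1) to 0.696 (PKM), with a median of 0.515 against 0.372 over all 7337 genes of at least 10 CPM. Of 10 other candidate reference genes, SDHA (0.285), HPRT1 (0.306), RPLP0 (0.327) and TBP (0.338) varied less than GAPDH, and the other 6, from YWHAZ (0.495) to B2M (1.22), varied more.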

How the data were processed

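RNA from 16 muscle samples was analysed as 4 groups of 4. The deposited counts are raw read counts per gene, and the deposited TPM were computed by the authors. For alignment and quantification, the study's methods name HISAT2, Bowtie2 and StringTie, whereas the submitters' processing notes name STAR, featureCounts and build ARS-UCD1.2. The labels state poly(A) selection and the study's methods an rRNA and globin removal kit, and these conflicts bear on which reads were counted. The deposited comparison tables hold the authors' fold changes and p-values and were not used.

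Counts were tested with edgeR 4.0.16 (TMM factors, quasi-likelihood F test, R 4.3.3) after leaving out genes with 0 counts throughout the libraries compared, for diet in each muscle and for round against sirloin muscle and the difference of the diet effects in all 16 libraries. The tests were two-sided and p-values were adjusted over all genes tested (Benjamini-Hochberg). The standard error is the size of the log2 fold change divided by the square root of F. Log2 CPM used a prior count of 2. Relations to the fibre index used Pearson's r and Spearman's rho with two-sided exact permutation over 40320 orderings of 8 calves. Alternatives were DESeq2 1.42.0, other scalings, filterByExpr, a replicate block and leaving out each calf. The edgeR and DESeq2 fits, the removal of group means, the likeness correlation and the exact permutation of r were tested on simulated data. The remaining steps and alternatives were not.

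The replicate number was taken to pair the muscles of a calf: deviations from the group means correlated at 0.389 to 0.779 (median 0.555) in the 8 pairs. In 56 pairs of different calves they correlated at -0.565 to 0.498 (median -0.105), so the ranges overlapped. All 10 genes are named, with genes of the lists where a level or difference is compared with them, and the 5 genes most and 3 least like their mean. The members and lists were chosen with earlier results of these data known. Replicates are separate calves by the study's methods. The strand setting of the counting was not given in the sources used here, so reads shared with near-identical copies or antisense genes remain uncertain. No sequence or coordinate was used here.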

Additional observations from a re-analysis of the deposited data

How the results depend on the processing

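No glycolytic gene was called for diet, muscle or their interaction under any alternative: DESeq2, RLE factors, library size alone, filterByExpr, a replicate block, or leaving out each calf. Signs of small differences did turn. Scaled by library size alone, ALDOA and GAPDH turned to 0.018 and 0.037 for diet in round and GAPDH to 0.058 in sirloin muscle, and ENO3 to -0.027 between muscles and -0.052 for the difference of diet effects. That scaling moved the median over all genes by more than 0.1 in sirloin muscle (0.03 to 0.21), and to 0.09 in round muscle. With the replicate block of the calf, ENO3 was at -0.055 and PKM at -0.056 between muscles, and ENO3 at -0.055 for the difference of diet effects. The block changed no call of these genes. The replicate number did not pair calves across the diets, with correlations of -0.029 to 0.319 in round and -0.341 to 0.289 in sirloin muscle, and over all genes that block left 2 and 0 calls.

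Leaving out 1 calf each gave, for diet in round muscle, GPI -0.49 to 0.12, ALDOA -0.35 to 0.27, TPI1 -0.35 to 0.060, GAPDH -0.28 to 0.27, PGAM2 -0.40 to 0.15, ENO3 -0.43 to 0.10 and PKM -0.46 to 0.17, and for diet in sirloin muscle GAPDH -0.29 to 0.066. Between muscles PFKM ran from -0.30 to 0.0090, TPI1 from -0.15 to 0.078, GAPDH from -0.23 to 0.00028, ENO3 from -0.13 to 0.11 and PKM from -0.13 to 0.17, and for the difference of diet effects ENO3 from -0.24 to 0.23. The cause of these turns was not tested, beyond the fewer samples. The number of glycolytic genes related to the fibre index in round muscle fell from 10 to 0 without the 2 calves farthest from its median, and also to 0 without them with an index of genes of at least 10 CPM, an alternative chosen after seeing the data. Over all genes, DESeq2 called 45, 13 and 84 for diet in round, diet in sirloin and muscle, against 4, 2 and 14 in edgeR, and leaving out a calf gave 0 to 3, 0 to 1 and 13 to 19. With 4 calves a group, the standard errors of 0.22 to 0.46 for diet limit what could be detected.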

Other observations

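PKM had the widest spread of the glycolytic genes, and its lowest level, 645 TPM, was found in the round library of treated calf 2. The same calf had MYH7 at 11858 TPM in round but 1956 TPM in sirloin muscle, and LDHA at 989 and 860 TPM. No value of a glycolytic gene stood apart from its group of 4 by Dixon's test at the 95% level (40 groups tested).

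Of 13 genes of the hypoxia response outside glycolysis, 8 had positive and 5 negative estimates for diet in round muscle (median 0.07), and 10 positive and 3 negative in sirloin muscle (median 0.45). Without treated calf 4, the sirloin library with adipocyte genes, the latter were 8 and 5 (median 0.012). In edgeR and DESeq2, 0 of 13 passed after adjustment and 0 of 13 had an unadjusted p under 0.05 in either muscle. Of 12 genes of oxidative enzymes, 11 had positive estimates for round against sirloin muscle with a median of 0.17, and none passed in edgeR or DESeq2, with 0 of 12 under an unadjusted p of 0.05 in each.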
